A study of Mus musculus with 12 samples.

Results

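The genes described here make cholesterol and fatty acids. There are 35 of them, listed by their place in the pathway with earlier results of these data known, and they were followed in cultured mouse smooth muscle cells kept at a low or a high glucose concentration. A sterol branch held 18 genes, 17 enzymes of the route from acetyl-CoA to cholesterol and Stard4, a sterol carrier of the cytosol. A fatty acid branch held 12 genes, and 5 more control both branches. Each gene was read from 1 probe set, the one with the highest mean among those annotated with that single gene symbol. On this rule 32 of the 35 genes were measured, among 22180 genes in all. Idi1 and Scd2 had only probe sets shared with a second symbol, and Acat2 was not matched to a probe set, so the expression of these 3 is not analysed here.

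The cells were primary aortic smooth muscle cells of C57BL/6J mice, an inbred strain, used at passage 3 to 4. The medium was DMEM, to which 10% fetal calf serum had been added. The groups differed in glucose, which was 0.3 g/l (1.7 mM) in one and 4.5 g/l (25 mM) in the other, with no genetic change in either. The culture time is given as 14 days in the series text and as 1 week in the sample labels. RNA of 6 samples in each group was hybridised to Affymetrix gene arrays, and how many animals or separate cultures these came from is not given in the sources used here. The p-values below therefore measure the spread among these arrays alone, part or all of which could be technical. The question is how glucose alters expression in vascular smooth muscle cells.

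Cholesterol and fatty acids are both built from cytosolic acetyl-CoA. Sterol genes are switched on mainly by the transcription factor SREBP2 (gene Srebf2) and fatty acid genes mainly by SREBP1 (Srebf1). Both factors are made as membrane proteins of the endoplasmic reticulum, where Scap carries them to the Golgi for cleavage when sterols are low, and where the Insig proteins hold Scap back when sterols are plentiful. In liver and fat cells glucose and insulin are known to raise fatty acid synthesis genes, partly through SREBP1 and ChREBP. Vascular smooth muscle cells are better known for taking up and storing cholesterol in the diseased vessel wall than for making it.

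The values are log2 intensities from RMA, so a difference of 1 is a doubling, and they compare a gene between arrays but not one gene with another. One array of 12 stood apart: on the first principal component of all genes, which held 46.2% of the variance, 0.3 g/l replicate 4 lay at 17.2, whereas the rest of its group ranged from -30.2 to -24.4. The 4.5 g/l arrays spanned 12.5 to 26.2. Among the genes described here it lay outside the range of the other 5 arrays of its group for 28 of 32, above it for 11 and below it for 17 (56.7% of all genes lay outside). It was kept, and results are given with and without it. The 4.5 g/l arrays also fell apart by number, replicates 1 to 3 against 4 to 6. Of the cell type markers, all 6 smooth muscle genes were higher in 4.5 g/l (limma). Their mean ran from 9.98 to 10.33 in 0.3 g/l apart from replicate 4, which had 11.74. In 4.5 g/l it ran from 12.23 to 12.54. Endothelial genes were also read in these cultures. Their means in 0.3 g/l ran from 5.52 for Kdr to 11.71 for Emcn. Between them lay Tek at 5.93, Vwf at 6.04, Tie1 at 7.15, Pecam1 at 9.74, and Cdh5 and Eng at 11.10. The mean of the 8 endothelial genes was 8.58 to 8.65 in 0.3 g/l apart from replicate 4, which had 8.10. In 4.5 g/l it was 8.54 to 8.63 on the first 3 arrays and 7.93 to 7.95 on the last 3. Of these 8 genes 1 passed, lower in 4.5 g/l. The part of either marker list in the results below was not tested. Of 7 adipocyte genes, markers of a cell type rich in lipid synthesis, the hormone Adipoq lay between 3.19 and 3.97 on all arrays, a range below 4.20, under which the lowest 25% of genes fell. The group means of the other 6 lay above it, from 4.31 for Retn to 7.88 for Pparg in 0.3 g/l, with Fabp4 at 6.40 and Plin1 at 5.09. The mean of the 7 ran from 5.15 to 5.28 in 0.3 g/l and from 5.05 to 5.32 in 4.5 g/l. Pparg was the adipocyte gene that passed, with means of 7.88 in 0.3 g/l and 7.39 in 4.5 g/l, and the part of this list in the results below was not tested either. The mean of 6 macrophage genes ran from 4.88 to 5.22 in 0.3 g/l and from 4.81 to 5.17 in 4.5 g/l, and that of 4 fibroblast genes from 4.95 to 5.25 and from 4.88 to 5.43; none of these 10 passed (limma, adjusted over all genes; 1 of them had an unadjusted p under 0.05). In bulk samples fewer cells of a type and less RNA per cell cannot be told apart.

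Some of the lipid synthesis genes differed between the 2 glucose levels, in both directions and by modest amounts. In 4.5 g/l glucose 7 of the 32 rose and 3 fell (limma with Benjamini-Hochberg adjustment over all genes, threshold 0.05), and 22 did not pass. The 10 called genes were 31.2% of those measured, where 15.5% of all genes passed, 7.01% of them higher and 8.52% lower. No called gene reached a doubling; the differences ran from -0.49 to 0.68 (log2). The median difference was 0.08, against -0.01 over all genes, and the median size, sign aside, was 0.16 against 0.11. The values over all genes take in dimmer genes than these, as 0 members had a mean below 4.20, under which the lowest 25% of genes fell. With that 25% left out 3956 genes passed, against 3444 with all, and 6 sterol, 1 control and 4 fatty acid members. Shares among genes of a like level were not computed. Without 0.3 g/l replicate 4, 9 rose (as did 10.3% of all genes) and 7 fell (13.6%), 50% of the measured members where 23.9% of all genes passed, and the 10 called with 12 arrays were all among them. Groups without overlap were seen for 2 of the 32 genes, Fads2 and Hsd17b7, both higher (6.4% of all genes, 3.49% higher and 2.9% lower), and without that array for 13, 6 higher and 7 lower (18.9% of all genes).

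**Figure D1:**
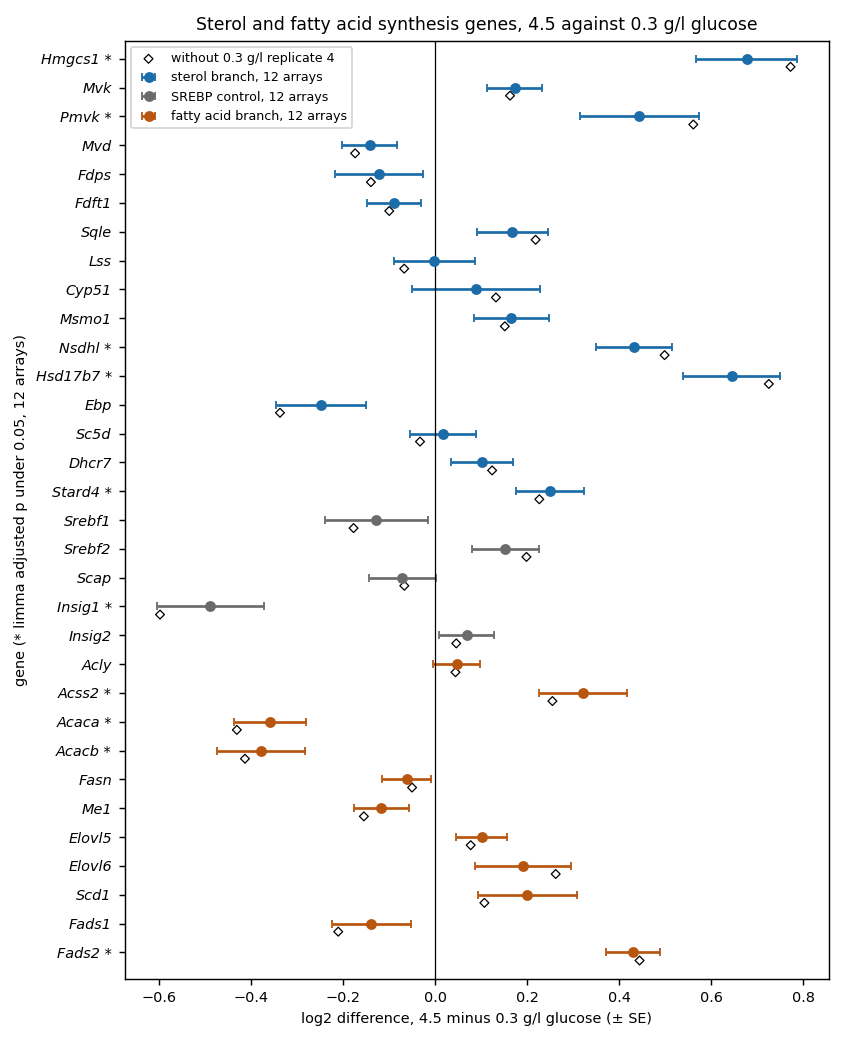
Log2 difference between 4.5 and 0.3 g/l glucose (x axis, circles ± SE, 12 arrays) for each of the 32 measured genes, coloured by branch, with diamonds for the difference without 0.3 g/l replicate 4; an asterisk marks the 10 genes past the threshold. The sterol genes Hmgcs1 at 0.68 and Hsd17b7 at 0.64 lie farthest to the right and Insig1 at -0.49 farthest to the left.

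In the sterol branch 5 of 16 measured genes rose, none fell, and 11 did not pass, where 7.01% of all genes rose and 8.52% fell. The median difference was 0.13, against -0.01 over all genes. Those that rose were the synthase Hmgcs1 at the start of the route, the kinase Pmvk of the mevalonate steps, Nsdhl and Hsd17b7, which act together in removing methyl groups from the sterol ring, and the carrier Stard4. Hmgcs1, the synthase that makes HMG-CoA, the precursor of mevalonate, had values of 9.13, 9.22 and 9.78 in 0.3 g/l glucose (lowest, median and highest of 6 arrays; probe set 17290173) and of 9.77, 9.96 and 10.20 in 4.5 g/l. The groups overlapped through a single array, 0.3 g/l replicate 4 at 9.78, while the other 5 lay between 9.13 and 9.28. Its means of 9.30 ± 0.24 and 9.98 ± 0.16 (SD, n = 6) differed by 0.68 ± 0.11 (SE), a 1.60-fold rise (limma adjusted p = 0.00119). Without replicate 4 of 0.3 g/l the difference was 0.77 (limma adjusted p = 9.84e-06).

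Of the other mevalonate enzymes, Pmvk, phosphomevalonate kinase, rose and its neighbours did not pass. Pmvk had 6.49, 6.63 and 7.34 in 0.3 g/l and 7.05, 7.21 and 7.34 in 4.5 g/l, a difference of 0.44 ± 0.13 (limma adjusted p = 0.0319). Its highest 0.3 g/l value was again replicate 4, and the other 5 arrays ended at 6.87, below all of 4.5 g/l. The call was lost when any of 7 single arrays was left out (0.3 g/l replicates 1, 2, 3 and 6 and 4.5 g/l replicates 1, 4 and 6), with limma adjusted p of up to 0.0768. Mevalonate kinase, Mvk, differed by 0.17 ± 0.06 (limma adjusted p = 0.0651). Mvk passed as higher without 0.3 g/l replicate 3 (0.20, limma adjusted p = 0.0485), with the lowest 25% of genes left out (limma adjusted p = 0.0397) and after cyclic loess (limma adjusted p = 0.0414), and under the last 2 settings 6 sterol genes were called. The decarboxylase Mvd differed by -0.14 ± 0.06 (limma adjusted p = 0.137), and once 0.3 g/l replicate 4 was removed it was called lower (-0.17, limma adjusted p = 0.0279). Fdps, which makes farnesyl diphosphate, the branch point to sterols, isoprenoids and protein prenylation, differed by -0.12 ± 0.10 (95% interval -0.33 to 0.08).

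After farnesyl diphosphate the route runs through squalene to lanosterol and on to cholesterol. Hsd17b7, a reductase acting on sterol ketones during demethylation, had 7.72, 7.80 and 8.30 in 0.3 g/l and 8.30, 8.56 and 8.70 in 4.5 g/l (probe set 17229466). Its groups did not overlap, though 0.3 g/l replicate 4 came close to the lowest 4.5 g/l array, and the rest of 0.3 g/l ended at 8.03. The difference was 0.64 ± 0.11, a 1.56-fold rise (limma adjusted p = 0.00123). Nsdhl, the decarboxylating dehydrogenase of the same demethylation steps, had 9.38, 9.49 and 9.87 in 0.3 g/l and 9.85, 9.95 and 10.13 in 4.5 g/l. It rose 1.35-fold (0.43 ± 0.08, limma adjusted p = 0.00325), and as with Hmgcs1 its groups overlapped only through 0.3 g/l replicate 4. Msmo1, the oxidase that starts the demethylation, differed by 0.17 ± 0.08 (limma adjusted p = 0.213).

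The remaining enzymes of this stretch did not pass. The differences were -0.09 ± 0.06 for squalene synthase, Fdft1, 0.17 ± 0.08 for squalene epoxidase, Sqle, and 0.10 ± 0.07 for Dhcr7, which completes cholesterol. Sqle was called higher once 0.3 g/l replicate 4 was removed (0.22, limma adjusted p = 0.0263). Lanosterol synthase, Lss, had means of 7.47 in both groups, with a 95% interval of the difference from -0.19 to 0.19, and the desaturase Sc5d had an interval from -0.14 to 0.17. The sign of both differences changed with the setting. Ebp, the isomerase that shifts a double bond in the ring, ran the other way: 7.77, 8.29 and 8.36 in 0.3 g/l and 7.83, 7.93 and 8.14 in 4.5 g/l. On 12 arrays it missed the threshold (-0.25 ± 0.10, limma adjusted p = 0.109). Its lowest 0.3 g/l value was replicate 4, the other 5 arrays lay between 8.28 and 8.36, above all of 4.5 g/l, and with that replicate removed it was called lower (-0.34, limma adjusted p = 0.00135).

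Stard4 moves cholesterol between membranes and is itself a sterol-regulated gene. It had 6.22, 6.32 and 6.51 in 0.3 g/l and 6.43, 6.61 and 6.72 in 4.5 g/l, overlapping groups, and rose by 0.25 ± 0.07 (limma adjusted p = 0.0352). That call was lost without any of 8 single arrays (0.3 g/l replicates 2, 3, 5 and 6 and 4.5 g/l replicates 1, 4, 5 and 6; limma adjusted p up to 0.0807) and after median centring of the arrays (limma adjusted p = 0.107).

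**Figure D2:**
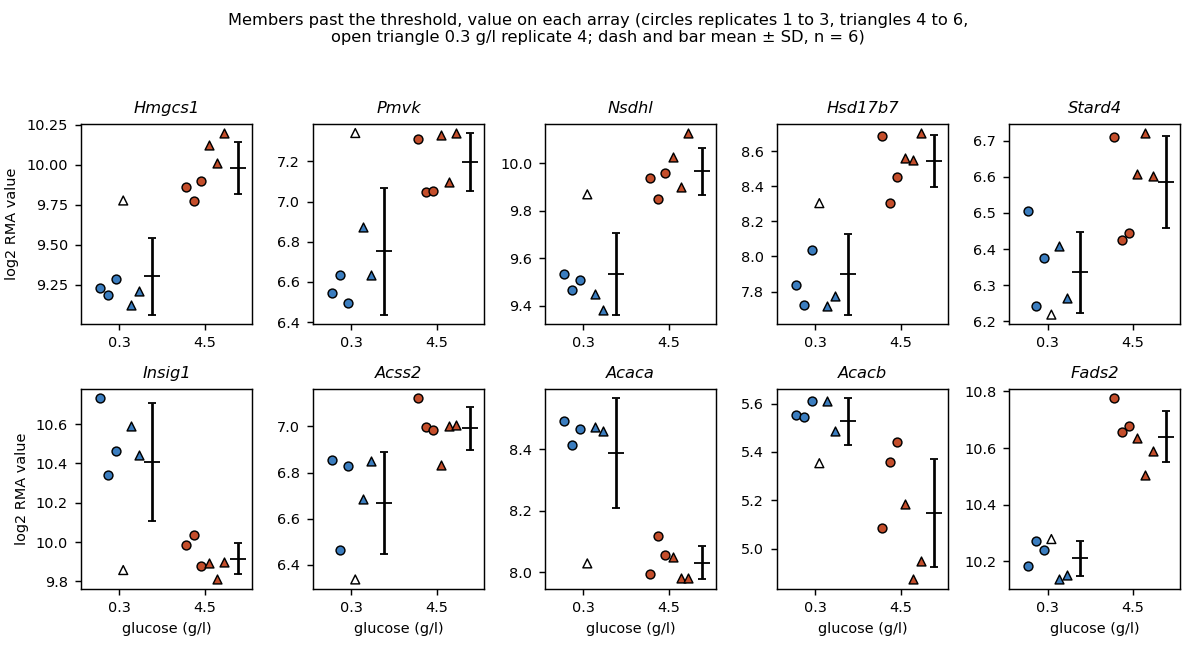
Log2 value (y axis, each panel with its own range) of the 10 genes past the threshold on each array by glucose concentration (x axis); circles are replicates 1 to 3, triangles replicates 4 to 6, the open triangle is 0.3 g/l replicate 4, and dash and bar give mean ± SD of 6 arrays. For Hmgcs1, Nsdhl, Insig1, Acaca and Acacb that open triangle is the one array of 0.3 g/l inside the 4.5 g/l range, for Pmvk it lies just above the highest 4.5 g/l array, whereas Fads2 and Hsd17b7 have no overlap.

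Among the genes that control both branches, Insig1 fell and the rest did not pass. Insig1 retains Scap in the endoplasmic reticulum and is one of the most sterol-sensitive targets of SREBP2, so it usually moves in the same direction as Hmgcs1. Here it had 9.86, 10.45 and 10.73 in 0.3 g/l and 9.81, 9.89 and 10.03 in 4.5 g/l (probe set 17435584). All arrays of 0.3 g/l other than replicate 4 lay at 10.34 or above, and every 4.5 g/l array lay below that. It fell by 0.49 ± 0.12 on the log2 scale, to a level 1.40-fold lower (limma adjusted p = 0.0118), and by 0.60 without 0.3 g/l replicate 4. Set against Insig1 within each array, Hmgcs1 was higher in 4.5 g/l by 1.17 (log2). The 2 groups of 6 overlapped in this gap through replicate 4 of 0.3 g/l alone, without which the gap was 1.37. Hmgcs1 had the largest rise and Insig1 the largest fall among the members, so this gap restates their differences and is not a separate result.

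Its paralog Insig2, which is less dependent on sterols, had 7.67, 7.78 and 7.91 in 0.3 g/l and 7.75, 7.86 and 7.95 in 4.5 g/l, overlapping groups whose means differed by 0.07 ± 0.06 (95% interval -0.06 to 0.20). Srebf2 had 8.94, 8.99 and 9.26 in 0.3 g/l and 9.09, 9.14 and 9.39 in 4.5 g/l, a difference of 0.15 ± 0.07 that did not pass (limma adjusted p = 0.196). Without 0.3 g/l replicate 4, the array at 9.26, the groups no longer overlapped and the gene was called higher (0.20, limma adjusted p = 0.0342). Srebf1 differed by -0.13 ± 0.11 (limma adjusted p = 0.534), with 7.34, 7.57 and 7.76 in 0.3 g/l and 7.14, 7.45 and 7.76 in 4.5 g/l. Scap had 8.90, 8.95 and 8.98 in 0.3 g/l and 8.69, 8.87 and 9.08 in 4.5 g/l, and its difference of -0.07 ± 0.07 turned positive (0.05) when its 2 probe sets were averaged. The array measures messenger RNA only, not the cleavage of SREBP proteins that this system controls.

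The promoters of 4 of these genes are shown because Hmgcs1 and Insig1, both SREBP targets, moved in opposite directions, Hsd17b7 was the sterol gene whose groups did not overlap, and Fads2, described below, was the fatty acid gene with that property. Each is the RefSeq window of 300 bases on GRCm38.p6, from 250 before to 50 after an annotated start of the gene, written 5′ to 3′ on the gene's strand. They lie at chr13:119690101-119690400 for Hmgcs1 (plus strand), chr5:28071162-28071461 for Insig1 (plus strand), chr1:169969156-169969455 for Hsd17b7 (minus strand) and chr19:10101454-10101753 for Fads2 (minus strand). Capitals mark matches, on either strand, to CCAAT (bound by NF-Y), GGGCGG (bound by Sp1), CACGTG (an E-box) and TCACNCCAC (a sterol regulatory element).
Hmgcs1: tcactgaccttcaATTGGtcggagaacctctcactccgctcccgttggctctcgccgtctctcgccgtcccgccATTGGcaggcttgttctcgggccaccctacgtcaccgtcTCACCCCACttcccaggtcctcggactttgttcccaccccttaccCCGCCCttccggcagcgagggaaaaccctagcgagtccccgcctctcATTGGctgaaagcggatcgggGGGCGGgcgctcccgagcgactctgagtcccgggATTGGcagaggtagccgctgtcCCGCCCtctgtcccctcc
Insig1: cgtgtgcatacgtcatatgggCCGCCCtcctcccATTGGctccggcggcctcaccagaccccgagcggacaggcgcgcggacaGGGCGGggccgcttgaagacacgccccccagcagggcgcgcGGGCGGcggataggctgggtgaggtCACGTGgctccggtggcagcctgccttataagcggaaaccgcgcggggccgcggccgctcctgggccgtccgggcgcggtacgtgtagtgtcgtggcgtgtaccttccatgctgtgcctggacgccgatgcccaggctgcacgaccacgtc
Hsd17b7: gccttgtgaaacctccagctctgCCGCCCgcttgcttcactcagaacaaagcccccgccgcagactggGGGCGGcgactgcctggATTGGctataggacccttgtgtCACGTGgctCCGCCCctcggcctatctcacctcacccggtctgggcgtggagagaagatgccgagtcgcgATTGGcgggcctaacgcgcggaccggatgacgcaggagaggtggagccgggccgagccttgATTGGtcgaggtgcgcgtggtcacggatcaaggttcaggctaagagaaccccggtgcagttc
Fads2: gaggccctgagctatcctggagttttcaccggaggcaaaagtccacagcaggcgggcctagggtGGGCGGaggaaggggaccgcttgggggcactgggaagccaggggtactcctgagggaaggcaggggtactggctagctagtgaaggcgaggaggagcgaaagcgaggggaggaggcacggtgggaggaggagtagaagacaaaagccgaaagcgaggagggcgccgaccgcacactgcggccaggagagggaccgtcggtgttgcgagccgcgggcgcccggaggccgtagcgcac
The Hmgcs1 window held 4 CCAAT, 3 GGGCGG and 1 TCACNCCAC match, the last starting at position -137 from the start site. The Insig1 window held 1 CCAAT, 3 GGGCGG and 1 CACGTG, and the Hsd17b7 window 3, 3 and 1 of the same motifs. The Fads2 window held 1 GGGCGG and none of the others.

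RefSeq windows were matched by symbol for 28 of the 35 genes, giving 37 windows because some genes have several starts. The sterol branch windows include those of Acat2 and Idi1, whose expression was not measured. CCAAT occurred in 76.5% of the 17 sterol branch windows, 60.0% of the 10 fatty acid windows and 5 of the 10 windows of the control genes. It occurred in 37.4% of all 32851 windows of that length and in 38.2% of the 21262 windows of protein-coding genes. GGGCGG occurred in 82.4% of the sterol windows, 4 of the 10 fatty acid windows and 8 of the 10 control windows, beside 35.7% of all windows and 46.2% of protein-coding ones. CACGTG occurred in 3 of the 17 sterol, 1 of the 10 fatty acid and 3 of the 10 control windows, beside 7.15% of all and 7.84% of protein-coding ones. TCACNCCAC occurred in 1 sterol window and in no other of the 37, beside 1.24% of all and 1.19% of protein-coding ones. Matches of different motifs did not share letters in the members' windows. These are letter matches and a description only, and windows of 1 gene are not independent.

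In the fatty acid branch 2 of 11 measured genes rose, 2 fell and 7 did not pass, beside 7.01% of all genes higher and 8.52% lower. The median difference was 0.05, against -0.01 over all genes. The branch did not move one way: both carboxylases fell, a desaturase and an acetate-activating enzyme rose, and fatty acid synthase and ATP citrate lyase did not pass. Fads2, the desaturase that starts the making of long polyunsaturated fatty acids, had 10.14, 10.21 and 10.28 in 0.3 g/l and 10.51, 10.65 and 10.78 in 4.5 g/l (probe set 17362595). The groups were clearly apart, 0.3 g/l replicate 4 at 10.28 included. It rose 1.35-fold, by 0.43 ± 0.06 (limma adjusted p = 0.000444), the smallest p among the members. 

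Fads1, which acts later in the same route and is encoded beside Fads2, had 10.24, 10.65 and 10.78 in 0.3 g/l and 10.35, 10.46 and 10.55 in 4.5 g/l. On 12 arrays it missed the threshold (-0.14 ± 0.09, limma adjusted p = 0.334), and with 0.3 g/l replicate 4, the array at 10.24, removed it was called lower (-0.21, limma adjusted p = 0.0222). Within an array Fads2 gained 0.57 on Fads1 in 4.5 g/l (log2), with no overlap of the groups in that gap. The gap combines the 0.43 of Fads2, whose groups were apart by themselves, with the -0.14 of Fads1. It is not a separate result.

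The acetyl-CoA carboxylases make malonyl-CoA, Acaca for synthesis in the cytosol and Acacb mainly to restrain fatty acid oxidation at mitochondria. Acaca had 8.03, 8.46 and 8.49 in 0.3 g/l and 7.98, 8.02 and 8.12 in 4.5 g/l (probe set 17254395). The 0.3 g/l arrays were tightly grouped between 8.41 and 8.49 except for replicate 4 at 8.03, which lay among the 4.5 g/l arrays. Acaca fell by 0.36 ± 0.08 on the log2 scale, 1.28-fold (limma adjusted p = 0.00732), and by 0.43 without that replicate. Acacb had 5.35, 5.55 and 5.61 in 0.3 g/l and 4.87, 5.13 and 5.44 in 4.5 g/l and fell by 0.38 ± 0.10 (limma adjusted p = 0.0162). Acacb was dim, as the median of all probe sets on an array was 4.92 to 5.05. Here too replicate 4 was the lowest of 0.3 g/l and the one array that overlapped with 4.5 g/l.

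Acss2 turns acetate into acetyl-CoA. It had 6.34, 6.76 and 6.86 in 0.3 g/l and 6.83, 7.00 and 7.12 in 4.5 g/l, which overlapped slightly, and rose by 0.32 ± 0.09 (limma adjusted p = 0.0338). The call was lost without any of 7 single arrays (0.3 g/l replicates 2 and 5 and 4.5 g/l replicates 1, 2, 3, 5 and 6; limma adjusted p up to 0.0777) and after median centring (limma adjusted p = 0.0957). Acly, which makes acetyl-CoA from citrate, had 9.37, 9.44 and 9.50 in 0.3 g/l and 9.42, 9.50 and 9.56 in 4.5 g/l (95% interval of the difference -0.06 to 0.16). Fasn, the synthase that builds palmitate, had 9.79, 9.82 and 9.89 in 0.3 g/l and 9.64, 9.79 and 9.83 in 4.5 g/l (interval -0.18 to 0.05). Both intervals ended short of the smallest called difference, the 0.25 of Stard4.

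The enzymes that supply reducing power and reshape palmitate did not pass either. Malic enzyme, Me1, a source of NADPH, differed by -0.12 ± 0.06 and was called lower once 0.3 g/l replicate 4 was removed (-0.15, limma adjusted p = 0.0313). The stearoyl-CoA desaturase Scd1 had 9.53, 10.04 and 10.26 in 0.3 g/l and 10.06, 10.15 and 10.40 in 4.5 g/l. Its difference of 0.20 ± 0.11 (limma adjusted p = 0.259) was 0.11 without 0.3 g/l replicate 4, its lowest array. The elongase Elovl6, which acts on palmitate, had 8.68, 8.96 and 9.34 in 0.3 g/l and 8.94, 9.16 and 9.38 in 4.5 g/l (0.19 ± 0.10, limma adjusted p = 0.270). Elovl5, an elongase of polyunsaturated fatty acids, differed by 0.10 ± 0.06 (limma adjusted p = 0.272).

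**Figure D3:**
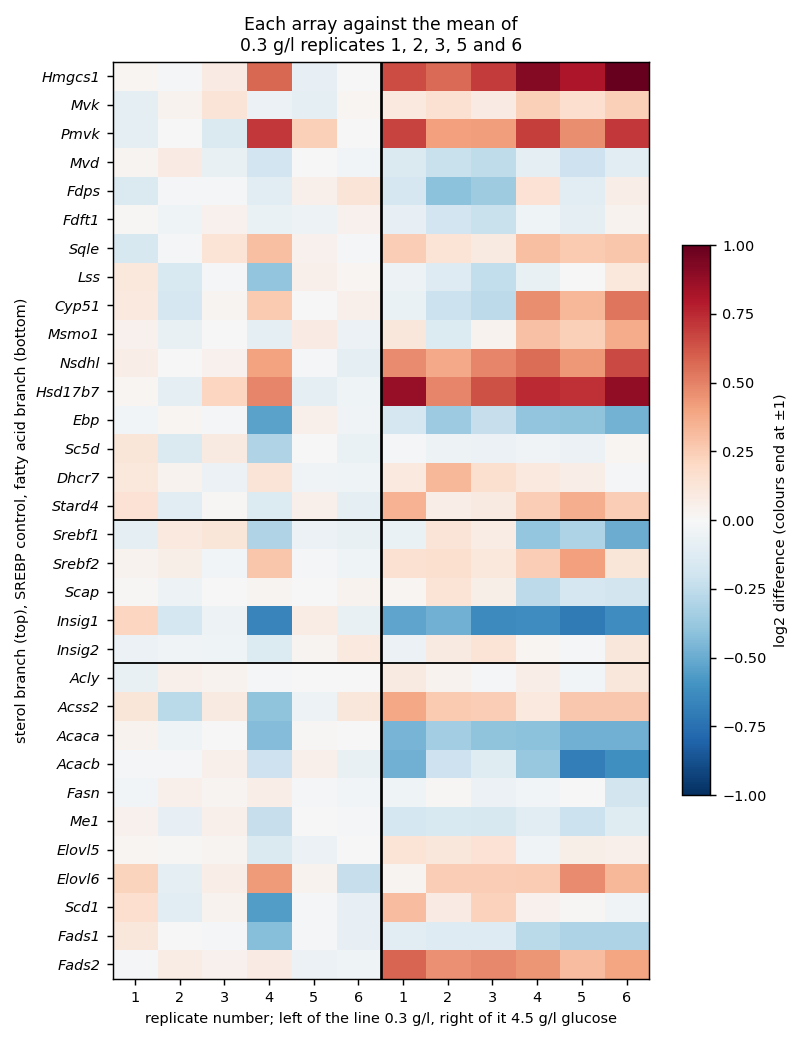
Log2 value of each of the 32 genes (rows) on each of the 12 arrays (columns) minus the mean of 0.3 g/l replicates 1, 2, 3, 5 and 6, red for higher and blue for lower, with values between -0.70 and 0.99. The column of 0.3 g/l replicate 4 carries the colours of the 4.5 g/l arrays for Hmgcs1, Pmvk, Insig1 and Acaca but not for Fads2, and Cyp51 is blue in 4.5 g/l replicates 1 to 3 and red in 4 to 6.

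The 4.5 g/l arrays differed among themselves by number. Replicates 4 to 6 did not overlap replicates 1 to 3 for 15 of the 32 genes, where this held for 27.8% of all genes. They were higher for 7 (12.5% of all genes), which were Hmgcs1, Mvk, Fdps, Sqle, Cyp51 and Msmo1 of the sterol branch and the elongase Elovl6. They were lower for 8 (15.3% of all genes), which were Ebp, Dhcr7, Srebf1, Scap, Elovl5, Scd1, Fads1 and Fads2. Cyp51, the enzyme that demethylates lanosterol, was the widest apart, at 8.52 to 8.71 on the first 3 arrays and 9.11 to 9.31 on the last 3, with 8.61 to 8.87 in 0.3 g/l outside replicate 4. Over all 12 arrays its difference was 0.09 ± 0.14 (limma adjusted p = 0.759). It was -0.17 within replicates 1 to 3 (limma adjusted p = 0.340) and 0.42 within replicates 4 to 6 without 0.3 g/l replicate 4 (limma adjusted p = 0.0308), where the 0.3 g/l group had 2 arrays.

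Fdps lay at 9.04 to 9.28 on the first 3 arrays and at 9.34 to 9.59 on the last 3. Msmo1 lay at 9.15 to 9.39 and at 9.52 to 9.65, and Hmgcs1 at 9.77 to 9.90 and at 10.01 to 10.20. For Hmgcs1 both sets of 4.5 g/l arrays were above the 0.3 g/l arrays other than replicate 4. Srebf1 ran the other way, at 7.57 to 7.76 first and 7.14 to 7.33 on the last 3, and so did Scap, at 8.96 to 9.08 and 8.69 to 8.78. For Srebf1 0.3 g/l replicate 4 was also the lowest array of its group, at 7.34. The endothelial marker mean was lower in the same arrays, 4.5 g/l replicates 4 to 6 and 0.3 g/l replicate 4, and its part in these differences was not tested. The labels name no batch for these numbers.

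**Figure D4:**
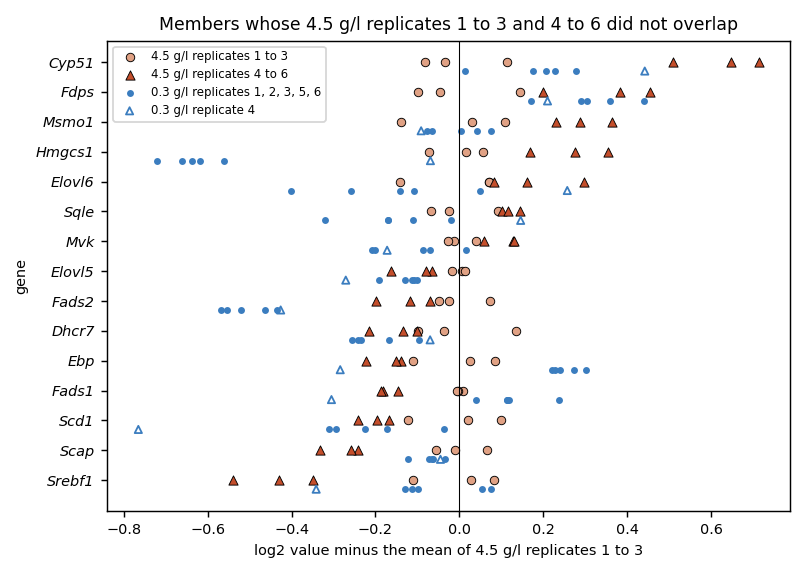
Log2 value minus the mean of 4.5 g/l replicates 1 to 3 (x axis) for the 15 genes whose 4.5 g/l replicates 1 to 3 (circles) and 4 to 6 (filled triangles) did not overlap, with the 0.3 g/l arrays as small dots and 0.3 g/l replicate 4 as an open triangle. Cyp51 and Fdps stand highest in replicates 4 to 6 and Srebf1 lowest. For Fads2 all 0.3 g/l arrays lie to the left of both 4.5 g/l sets, and for Hmgcs1 all but replicate 4 do.

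The contrast between glucose levels was therefore also fitted within each number range. In replicates 1 to 3 alone 5 members rose (as did 5.92% of all genes) and 2 fell (7.16%), 13.1% of all genes passing. In replicates 4 to 6, 0 members passed (limma; 10 at an unadjusted p under 0.05), with 0.135% of all genes passing (0.0947% higher, 0.0406% lower). With 0.3 g/l replicate 4 also removed, 6 rose (as did 6.55% of all genes) and 4 fell (8.94%), with 15.5% of all genes passing. With the number range as a block over 12 arrays, 7 rose (as did 7.94% of all genes) and 3 fell (9.58%), with 17.5% of all genes passing. Of the 10 called genes 7 passed in replicates 1 to 3 and also in replicates 4 to 6 without 0.3 g/l replicate 4: Hmgcs1 (0.61 and 0.94), Hsd17b7 (0.62 and 0.86), Nsdhl (0.41 and 0.60), Pmvk (0.58 and 0.50), Insig1 (-0.55 and -0.65), Acaca (-0.40 and -0.46) and Fads2 (0.47 and 0.43). Acacb passed in the second set only (-0.27 and -0.55, the difference between the sets was not tested), and Stard4 and Acss2 passed in neither. Both sets are parts of the 12 arrays that gave the calls, so passing again is not independent support. The share of all called genes that passed in both sets was not computed.

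Genes around the pathway were counted in the same way. Of 20 further genes of sterol synthesis, sensing and transport 17 were measured, of which 2 rose and 3 fell (7.01% and 8.52% of all genes). Lbr, a nuclear envelope protein with sterol reductase activity, rose 1.49-fold (0.57 ± 0.16, limma adjusted p = 0.0265), and Rnf145, a sterol-responsive ubiquitin ligase of the endoplasmic reticulum, rose 1.44-fold (0.52 ± 0.10, limma adjusted p = 0.00366). Erlin1, a membrane protein that restrains SREBP activation, was 1.56-fold lower (-0.64 ± 0.14, limma adjusted p = 0.00675), the lysosomal cholesterol exporter Npc1 1.52-fold lower (-0.60 ± 0.11, limma adjusted p = 0.00283) and Mbtps2, the protease that releases SREBP from the membrane, 1.31-fold lower (-0.39 ± 0.08, limma adjusted p = 0.00574). The cholesterol effluxers Abca1 and Abcg1, targets of the oxysterol receptors, differed by -0.05 ± 0.07 and 0.03 ± 0.09 and did not pass. Without 0.3 g/l replicate 4, 3 of the list rose and 6 fell (10.3% and 13.6% of all genes).

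Of 22 further genes of fatty acid and glycerolipid synthesis 20 were measured, and 5 fell and none rose (8.52% and 7.01% of all genes). They were Acsl4, which activates arachidonic acid (1.49-fold lower, -0.58 ± 0.16, limma adjusted p = 0.0273), Mid1ip1, an activator of acetyl-CoA carboxylase (1.46-fold lower, -0.55 ± 0.15, limma adjusted p = 0.0242), the acyltransferases Agpat2 (-0.39 ± 0.09, limma adjusted p = 0.00804) and Dgat2 (-0.39 ± 0.10, limma adjusted p = 0.0172) of triglyceride synthesis, and the elongase Elovl1 of very long fatty acids (-0.27 ± 0.07, limma adjusted p = 0.0180). Leaving out any of 7 single arrays (0.3 g/l replicates 1, 3, 5 and 6 and 4.5 g/l replicates 4, 5 and 6) left 3 of the list called, and removing 0.3 g/l replicate 4 gave 6 lower and 1 higher (13.6% and 10.3% of all genes). ChREBP, encoded by Mlxipl, differed by -0.02 ± 0.06, and Thrsp, a lipogenic target known from liver, by 0.14 ± 0.09; neither passed, and both had means under 5.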

How the data were processed

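Per the submitters' processing notes, the authors' deposited log2 values, 1 for each probe set, came from RMA in Affymetrix Expression Console (background correction, quantile scaling, probe summary); versions, scan dates and a genome build for the array are not given in the sources used here. The table held 41345 probe sets on 12 arrays, with values from 0.60 to 13.90. The platform annotation gave 1 symbol to 23521 probe sets, several to 1814 and none here to 16010. Each of 22180 genes was represented by its probe set with the highest mean. RMA hides changes in total RNA and compresses dim genes, and arrays give no read depth, so their number limits the precision.

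Groups followed the sample titles. All genes were fitted in R 4.3.3 with limma 3.58.1 (lmFit, eBayes, two-sided, no block). P-values were adjusted by Benjamini-Hochberg over every gene fitted, at 0.05. The fit was checked on simulated data with independent noise. These had no array that stood apart and no split by number, so the check does not cover those features. Members, branches and lists were chosen with earlier results of these data known. Values were given for the called members and a fixed set of central genes, and called genes of the neighbouring lists were named. The alternatives were a trended, robust prior, a filter on the dimmest 25% of genes, quantile, cyclic loess or median scaling, averaged probe sets, array weights, an exact rank-sum test, blocks for the replicate number or its range, number ranges alone and each array left out. Motifs were searched in RefSeq promoter windows (GRCm38.p6). Figures were drawn with matplotlib 3.10.9.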

Additional observations from a re-analysis of the deposited data

Results flagged for a closer look

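In a group of 6 arrays, a highest or lowest array was marked when its gap to the nearest other array as a share of the group's range (Dixon's ratio) exceeded the 95% critical value. Over 64 groups (32 genes at 2 glucose levels), chance marks about 1 in 20. Of the 7 marks, 6 fell on the same array, 0.3 g/l replicate 4, and are not independent of each other. It was the highest array of its group for Hmgcs1 (9.78, next 9.28, ratio 0.756), Nsdhl (9.87, next 9.54, ratio 0.682) and Srebf2 (9.26, next 9.04, ratio 0.678). It was the lowest for Ebp (7.77, next 8.28, ratio 0.861), Acaca (8.03, next 8.41, ratio 0.831) and Fads1 (10.24, next 10.58, ratio 0.637). The remaining mark fell on 4.5 g/l replicate 6, the lowest array of its group for Fasn (9.64, next 9.76, ratio 0.639).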

How the results depend on the processing

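The number of arrays, the array that stood apart (0.3 g/l replicate 4) and the split of 4.5 g/l by number limit these results most. Leaving out 1 array gave 3 to 8 called genes in the sterol branch (5 with all; 8 without 0.3 g/l replicate 4, and 3 without 0.3 g/l replicate 2 or 6 or 4.5 g/l replicate 1, 4 or 6), 1 to 2 among the control genes, 3 to 6 in the fatty acid branch, 4 to 9 and 3 to 7 in the further sterol and fatty acid lists, and 2514 to 5295 over all genes (3444 with all). Array weights gave 8 sterol genes, 2 control genes, 9 further sterol genes and 5419 genes in all. The exact rank-sum test gave 3 sterol genes, 1 fatty acid gene and 1 further sterol gene, 0 of the control genes (2 at an unadjusted p under 0.05; limma 1), 0 of the further fatty acid genes (5 unadjusted; limma 5) and 1993 genes in all. Replicates 4 to 6 alone gave 30 genes in all and 0 of each list by limma (unadjusted 7 sterol, 1 control, 2 fatty acid, 2 further sterol and 2 further fatty acid genes), and replicates 1 to 3 alone gave 2 fatty acid genes. The sterol median was 0.049 in replicates 1 to 3, 0.21 in replicates 4 to 6, and 0.26 there without 0.3 g/l replicate 4, against 0.13 with all arrays.

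No called gene changed direction under these alternatives. Among genes not called, Lss (-0.0019 with all arrays) was 0.016 after quantile normalization, 0.016 after cyclic loess, 0.12 in replicates 4 to 6, and -0.067 to 0.034 with 1 array left out. Sc5d was -0.026 after median centring, -0.035 with array weights, -0.067 in replicates 1 to 3 and -0.033 to 0.053 with 1 array left out. Scap was 0.054 with its probe sets averaged and 0.083 in replicates 1 to 3, where Cyp51 was -0.17 and Srebf1 0.00043. Fdps was 0.0093 in replicates 4 to 6, and Insig2 was -0.026 there without 0.3 g/l replicate 4. The causes were not tested. The replicate number did not pair the samples: deviations of same-numbered arrays correlated between -0.046 and 0.17. With it as a replicate block, 3130 genes passed in all, and 5 sterol, 1 control and 4 fatty acid members, as without it.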
